A study of Mus musculus with 3 samples.

Results

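Expression of 10 genes for cell surface proteins used to mark mesenchymal stem and stromal cells was examined in proximal mouse incisor: Thy1, Ly6a, Nt5e, Pdgfra, Pdgfrb, Eng, Lepr, Ngfr, Vcam1 and Cd200. The genes were chosen by name, and all 10 were found among the 19381 genes of the deposited table. The tissue came from mice labelled DKO, with the genotype Gli1-CreER;Arid1afl/fl;Arid1bfl/fl, in which a tamoxifen-activated Cre under the Gli1 promoter acts on floxed alleles of Arid1a and Arid1b, which encode alternative subunits of canonical BAF, a chromatin remodeling complex. Mice aged 1 month had received tamoxifen at 1.5 mg per 10 g of body weight 4 days before collection. The labels give 3 libraries of bulk RNA and no other group, so no control or genotype comparison was made. Cre acts only in cells that expressed Gli1, while the RNA came from all cells of the digested region, recombined or not. Separate animals are not named in the labels, so every SD and p-value below measures only how these libraries differ, and that spread may be technical.

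The dental mesenchyme at the proximal end of the mouse incisor holds Gli1-expressing stem cells that renew the pulp and the dentin-forming odontoblasts as the tooth grows throughout life. No surface protein is specific to such cells. Thy1 (CD90), Nt5e (CD73) and Eng (CD105) are the classical positive set for cultured human mesenchymal stromal cells, Ly6a (Sca-1) and Pdgfra are used in mouse marrow, Lepr marks perivascular marrow stroma, and Ngfr (CD271), Vcam1 (CD106) and Cd200 are used to sort stromal or skeletal progenitors. Most are also made by endothelial, mural, glial or blood cells. In bulk RNA a smaller number of cells of a type and less RNA per cell cannot be told apart.

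The deposited values are gene-level counts scaled to a common upper quartile, called normalized counts here, and are not divided by gene length. Library totals were between 958773 and 986401 normalized counts, equal to 33863066 to 41477624 times the smallest listed value. In each library 8 of the 10 members lay within 0.1 of a whole multiple of that smallest value, although only 82.4% to 82.6% of all low values did. If the smallest value is 1 read, the members rest on between 48.0 (Nt5e, replicate 2) and 27330 (Pdgfra, replicate 3) reads per library. The tissue label was checked on markers: the mesenchymal transcription factors Prrx1 and Msx1 stood at 619 ± 57.9 and 240.1 ± 29.2 (SD, n = 3), and all 10 dental epithelium markers were also present, with summed levels from 815 to 1292. Replicate 1 stood apart for interferon-stimulated genes, whose 13 measured members summed to 1610 there against 352 and 358 in replicates 2 and 3.

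Upstream sequences are shown for 4 members picked by the library in which they were highest: Cd200 and Ngfr in replicate 1, Eng and Lepr in replicate 3. Nt5e, also highest in replicate 1, and Pdgfra, also highest in replicate 3, are not printed. A link between sequence and library was not tested. They are RefSeq promoter windows (GRCm38.p6) printed 5′ to 3′ on the strand of the gene and stopped before the first annotated exon. Their positions are chr16:45409054-45409303 (minus strand) for Cd200, chr11:95587736-95587948 (minus strand) for Ngfr, chr2:32646345-32646594 (plus strand) for Eng and chr4:101717157-101717403 (plus strand) for Lepr. Capitals mark matches to GGGCGG, the core of an Sp1 site, on either strand.
Cd200: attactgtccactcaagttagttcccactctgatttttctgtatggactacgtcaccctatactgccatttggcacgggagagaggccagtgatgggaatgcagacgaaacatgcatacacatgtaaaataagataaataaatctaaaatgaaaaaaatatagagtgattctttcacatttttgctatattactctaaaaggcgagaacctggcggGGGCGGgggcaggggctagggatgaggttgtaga
Ngfr: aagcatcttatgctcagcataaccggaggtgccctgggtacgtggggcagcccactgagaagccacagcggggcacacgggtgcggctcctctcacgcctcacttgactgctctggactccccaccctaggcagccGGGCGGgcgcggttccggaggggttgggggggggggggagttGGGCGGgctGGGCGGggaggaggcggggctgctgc
Eng: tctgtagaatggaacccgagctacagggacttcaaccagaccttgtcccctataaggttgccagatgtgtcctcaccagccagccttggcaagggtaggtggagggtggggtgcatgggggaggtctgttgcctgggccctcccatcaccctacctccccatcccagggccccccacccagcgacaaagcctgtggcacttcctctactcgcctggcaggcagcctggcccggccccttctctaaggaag
Lepr: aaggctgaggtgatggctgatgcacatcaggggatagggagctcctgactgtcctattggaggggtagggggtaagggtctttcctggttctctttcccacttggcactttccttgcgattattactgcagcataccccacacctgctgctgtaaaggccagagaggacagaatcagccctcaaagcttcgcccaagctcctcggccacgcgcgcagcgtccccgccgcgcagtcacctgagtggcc

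Of the 10 members, 6 had a window in the RefSeq table (Pdgfra, Eng, Lepr, Ngfr, Nt5e and Cd200), each running from 250 bases before the transcription start to 50 after it. Thy1, Ly6a, Pdgfrb and Vcam1 had no entry. GGGCGG matched 4 times in the full Ngfr window, 4 times in that of Nt5e and 1 time in that of Cd200, and it was not found in the windows of Eng and Pdgfra. Of the pair of Lepr windows, the printed one held no match and the other held 1. On both strands, this motif occurs in 35.7% of all 32851 windows. None of the members' windows held the interferon-stimulated response element (3.44% of windows), TTCNNNGAA, a STAT site (8.3%), or the core promoter box TATAAA (13.6%), so no match overlapped another motif. CpG dinucleotides numbered 23 in the windows of Ngfr and Nt5e, the members with the lowest deposited values, and 5 in that of Pdgfra, which had the highest, against a median of 7 over all windows.

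PDGF receptor genes had the highest deposited values of the 10. Pdgfra, the receptor tyrosine kinase bound by PDGF-A and PDGF-C and widely made by mesenchymal progenitors (chromosome 5, 75152292 to 75198215, mm10), was at 568, 624 and 637 normalized counts in replicates 1, 2 and 3 (610 ± 36.3, SD, n = 3). Replicate 1 was lowest, and the other libraries differed little. This level lay above 98.9% of the 10388 genes with a mean of at least 10. Pdgfrb, bound by PDGF-B and PDGF-D and typical of pericytes and other perivascular cells (chromosome 18, 61045150 to 61085061), was at 148, 126 and 155 (143 ± 15.5), lowest in replicate 2. Per kilobase of exon, Pdgfra exceeded Pdgfrb 2.10-, 2.71- and 2.24-fold within the 3 libraries, a ratio of 2.35 ± 0.32. Of the 9 measured pericyte and smooth muscle markers, 4 were highest in replicate 3, as Pdgfrb was (30.4% of all listed genes). Another 4, Acta2, Myh11, Tagln and Cnn1, were highest in replicate 2 (34.3%), where Pdgfrb was lowest. The 9 markers summed to 810, 825 and 921, of which Rgs5 made up 515, 477 and 570.5. Their part in the Pdgfrb level was not tested.

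Endoglin, a TGF-beta and BMP co-receptor that is abundant on endothelium, differed more between libraries. Eng (chromosome 2, 32646595 to 32682669) was at 89.8, 99.1 and 125 (105 ± 18.4). Replicate 3 was 1.33-fold above the mean of the others. All 10 endothelial markers, Cdh5, Vwf and Pecam1 among them, were also highest in replicate 3 (30.4% of all listed genes). Of the macrophage and odontoblast markers, 6 of 10 each were highest there too. The endothelial markers summed to 395, 403 and 531. The SD of log2(value + 1) of Eng was 0.24, and 0.10 without replicate 3. A fall was fixed in advance, since replicate 3 was the most distant library. The part of endothelial cells in the level of Eng was not tested.

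Lepr, the leptin receptor (chromosome 4, 101717404 to 101815352), was scarce, at 10.7, 11.6 and 17.0 (13.1 ± 3.39). It shared with Eng and Pdgfra the order of the libraries, with replicate 3 at 1.52 times the mean of the others. The SD of its log2 value was 0.33, and 0.07 without replicate 3, a fall fixed by leaving out its most distant library. Its values do not separate the long, signalling isoform from the short ones. Ngfr, the p75 receptor that binds all neurotrophins and is typical of neural crest and Schwann lineage cells (chromosome 11, 95568818 to 95587735), was at 12.2, 8.05 and 9.15 (9.81 ± 2.17). Replicate 1 was highest. Of the 10 Schwann cell and glia markers, 3 had a mean of at least 10, beside 10388 of all 19381 listed genes. The defining factor Sox10 was at 1.01 ± 0.277. The 10 markers summed to 56.4, 59.9 and 72.0. Of the 10, 8 were lowest in replicate 1 (34.0% of all listed genes), whereas Mal and Cdh19 were highest there, as Ngfr was. Their part in the level of Ngfr was not tested.

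**Figure D1:**
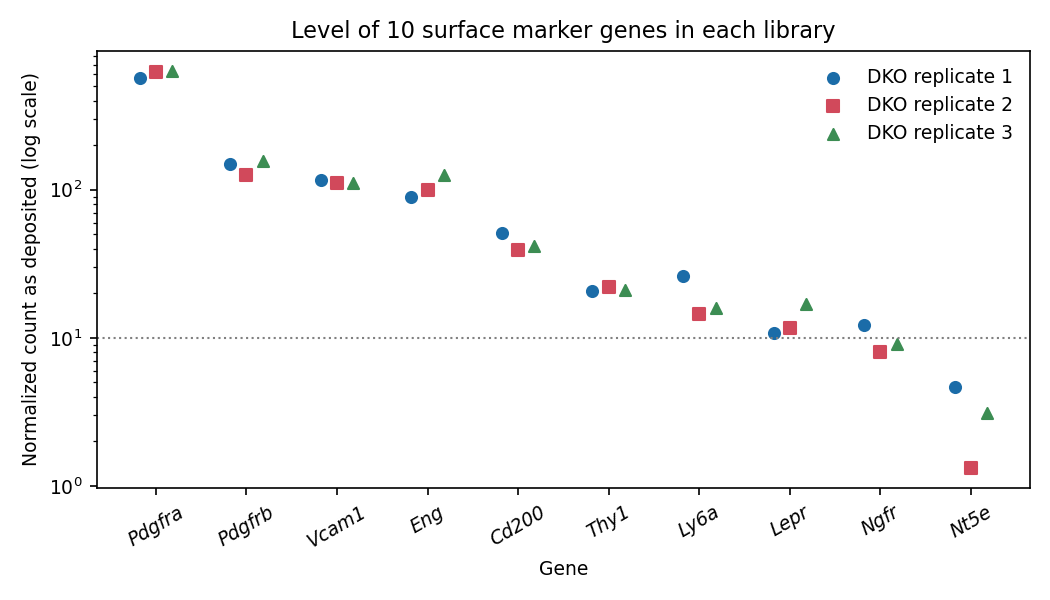
Normalized counts as deposited (log axis) of the 10 surface marker genes in DKO replicates 1, 2 and 3, ordered by mean, with the dotted line at 10. Pdgfra stands above all others in every library, the libraries nearly coincide for Thy1 and Vcam1, and Nt5e has the widest separation.

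The 3 members held in the membrane by a GPI anchor had low deposited counts. Thy1, an immunoglobulin superfamily protein of fibroblasts, neurons and T cells (chromosome 9, 44043384 to 44048579), was at 20.8, 22.1 and 20.9 (21.3 ± 0.693). Its libraries nearly coincided. The lymphocyte markers were at 13.2 to 22.0 in sum over 5 measured genes, led by Cd4 (14.0 ± 4.82) and Lck (2.11 ± 0.45), with Cd3e at 0.174 ± 0.155.

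Ly6a, the mouse stem cell antigen Sca-1, which is also known as an interferon-inducible gene (chromosome 15, 74994877 to 74998031), was at 26.0, 14.5 and 15.9 (18.8 ± 6.29). Replicate 1 was 1.71-fold above the mean of the others, which lay close together. The SD of log2(value + 1) was 0.43, and 0.09 without replicate 1. Leaving out the most distant library always lowers the SD. All 13 interferon-stimulated genes were also highest in replicate 1 (35.3% of all listed genes), with Oasl2 at 357, 64.4 and 68.8. Among the 13 measured genes of the Ly6 and uPAR family, 5 had a mean of at least 10, beside 10388 of all 19381 listed genes. Of the 13, 8 lie on chromosome 15 as Ly6a does. Ly6e, Ly6c1 and Ly6a, the 3 of these 8 with a mean of at least 10, were all highest in replicate 1, as were 31.2% of all genes at that level. Of the 8 regardless of level, 5 were highest in replicate 1 (35.3% of all listed genes), and Ly6c2, Ly6d and Ly6h, each below 10, were highest in replicate 3. Ly6e was at 206, 92.0 and 109 and Ly6c1 at 20.0, 11.5 and 8.77. On other chromosomes Lypd1 was at 76.1, 40.1 and 49.4, again highest in replicate 1, while Cd59a (30.8 ± 11.6) was highest in replicate 2. Ly6 genes resemble each other closely, so their levels are uncertain to the extent that the counting split or shared reads between them, which was not tested. The part of the interferon genes in the Ly6a difference was not tested.

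Nt5e, the ectoenzyme that turns AMP into adenosine (chromosome 9, 88327197 to 88372092), had the lowest level and the widest spread of the 10, at 4.66, 1.32 and 3.10 (3.03 ± 1.67). Replicate 2 lay 2.94-fold below the mean of the others. If the smallest value is 1 read, these levels rest on 160, 48.0 and 133 reads. Of the 11 measured partner genes of Nt5e, 7 were lowest in replicate 2 too (29.4% of all listed genes). Among these 7 were Alpl and Enpp1, ectoenzymes of mineralizing cells that break down and make pyrophosphate, at 275, 181 and 253 and at 88.3, 41.3 and 68.5. Entpd1, Entpd2 and Entpd3, which act upstream of Nt5e on ATP and ADP, were lowest in replicate 1. Of the 10 odontoblast genes, 7 were lowest in replicate 2 (again beside 29.4%), while Col1a2 and Ibsp were lowest in replicate 1. Their sum of 18944, 10245 and 23803 came mostly from Col1a1, Col1a2 and Dspp. Their part in the Nt5e difference was not tested.

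Of the adhesion proteins, Vcam1, the ligand of integrin alpha 4 beta 1 (chromosome 3, 116109949 to 116129688), was at 116, 112 and 111 (113 ± 2.94). Cd200, the ligand of an inhibitory receptor of myeloid cells (chromosome 16, 45382135 to 45409053), was at 51.3, 38.9 and 41.4 (43.9 ± 6.56), with replicate 1 at 1.28 times the mean of the others. Vcam1 was among the steadiest members. The 10 markers of macrophages, which can also make Vcam1, summed to 1018, 1313 and 1379. Of these, 8 were lowest in replicate 1 (34.0% of all listed genes), whereas Fcgr1 and Mertk were highest there, as Vcam1 was. Their part in the level of Vcam1 was not tested.

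Division by length changed the order of the members. Length was first taken as the union of all annotated exons, from 1205 bases for Ly6a to 10024 for Pdgfra. The order of levels per kilobase was then Pdgfra (60.8 ± 3.62), Pdgfrb (26.1 ± 2.83), Eng (25.9 ± 4.55), Ly6a (15.6 ± 5.22), Cd200 (13.2 ± 1.97), Vcam1 (12.8 ± 0.33), Thy1 (7.10 ± 0.23), Ngfr (2.85 ± 0.63), Lepr (1.86 ± 0.48) and Nt5e (0.35 ± 0.19). With this length, the libraries did not overlap in 5 of the 9 neighbouring pairs. These were Pdgfra and Pdgfrb, Eng and Ly6a, Vcam1 and Thy1, Thy1 and Ngfr, and Lepr and Nt5e. Eng and Ly6a were barely apart in replicate 1, at 22.2 and 21.6. The values of Pdgfrb and Eng, Ly6a and Cd200, Cd200 and Vcam1, and Ngfr and Lepr overlapped, so these pairs were not separated by more than the spread.

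Within libraries, the difference per kilobase was 1.19 ± 0.19 on the log2(value + 1) scale between Pdgfra and Pdgfrb and 0.02 ± 0.22 between Pdgfrb and Eng. For the 7 pairs with the same direction in 3 of 3 libraries p was 0.25, and for the others 1, by an exact permutation test that flips signs, two-sided (0.32 and 1 after Benjamini-Hochberg adjustment over 9 pairs). With n = 3 the smallest p this exact test allows is 0.25. The pairs and the direction of each difference were taken from the means of these same libraries. The p-values are thus no separate support for the order. The place of Vcam1 depended on the length used. Its exons sum to 8870 bases, but its longest protein-coding transcript has 3469, and per kilobase of that transcript Vcam1 stood second, at 32.6 ± 0.85, above Eng (30.6 ± 5.38) and Pdgfrb (26.4 ± 2.85). Pdgfra stayed first, at 89.2 ± 5.31, and Ngfr, Lepr and Nt5e stayed last. In the order by that length, the libraries did not overlap in 4 of 9 neighbouring pairs. The separation of Eng from Ly6a was lost. Their log2 difference was 0.64, not in the same direction in all libraries (p = 0.5 by the same exact test). Which transcripts were made is not known from gene-level values.

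**Figure D2:**
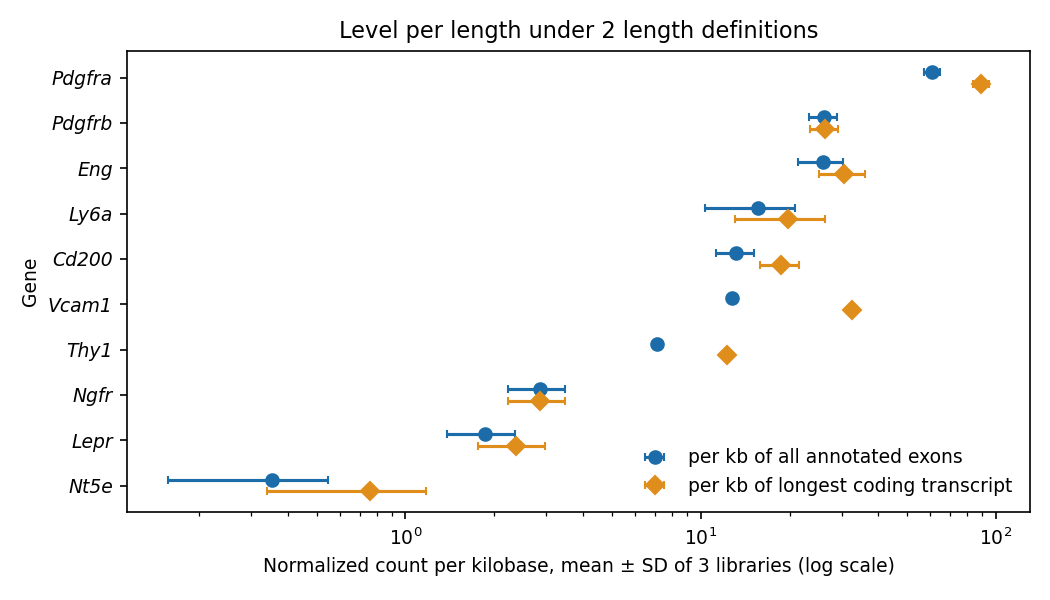
Level per kilobase, as mean ± SD of 3 libraries on a log axis, with length as all annotated exons (circles) or the longest protein-coding transcript (diamonds). Pdgfra is first and Nt5e last under both, while Vcam1 moves from 12.8 to 32.6.

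The classical positive set for cultured stromal cells was unequal in this tissue. Per kilobase of exon, Eng exceeded Thy1 3.19-, 3.32- and 4.44-fold and exceeded Nt5e 41.0-, 160- and 86.0-fold in the 3 libraries. These folds depend on the length used. Per kilobase of the longest protein-coding transcript the means were 30.6 for Eng, 12.3 for Thy1 and 0.76 for Nt5e, which narrows both contrasts. Among 22 other stromal surface genes, all were measured and 19 had a mean of at least 10, beside 10388 of all 19381 listed genes. Itgb1 (CD29) was at 1006 ± 104, the collagen receptor Ddr2 at 396 ± 27.3 and Cd24a at 300 ± 43.4, while Dpp4 and Mfap5, markers of other fibroblast populations, were at 1.09 ± 0.0975 and 1.16 ± 0.603. Of 11 measured blood-lineage genes that serve as negative markers, 6 had a mean of at least 10, a share close to that of all listed genes, with the highest values for Kit (91.2 ± 23.6), the leukocyte gene Ptprc (62.2 ± 7.42) and H2-Aa (51.5 ± 11.6).

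Other genes of incisor mesenchymal stem cells were measured in 16 of 16 cases. Of these, 12 had a mean of at least 10, beside 10388 of all 19381 listed genes. The hedgehog receptor and target Ptch1 was at 647 ± 41.0, Smoc2, a secreted matrix protein, at 265 ± 32.4, and Gli1, whose promoter drives the Cre, at 41.7 ± 3.53.

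Ligands of the PDGF receptors were all measured. Pdgfd, a ligand of Pdgfrb, was at 203 ± 12.1, the ligands of Pdgfra, Pdgfc and Pdgfa, were at 80.7 ± 8.50 and 26.6 ± 4.79, and Pdgfb was at 10.9 ± 1.55. Per kilobase of exon these 4 levels were 64.5, 15.9, 8.53 and 2.63, in the same order. All 10 genes of this list, including the adaptor phosphatase Ptpn11 (186 ± 10.3) and the protease Furin (245 ± 17.2), had a mean of at least 10. Around Eng, 11 of 12 measured genes reached that level, beside 10388 of all 19381 listed genes. The ligands Tgfb3 (645 ± 35.6) and Tgfb2 (467 ± 49.2) and the receptor Bmpr2 (487 ± 8.74) led, and the endothelial type I receptor Acvrl1, with which Eng acts, was at 53.4 ± 5.29. The circulating ligands Gdf2 and Bmp10 were not analysed here.

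Partners of the scarcer members differed in level. For Lepr, 5 of 6 measured genes of the list, Lepr included, had a mean of at least 10, and for Ngfr 4 of 12. Of all 19381 listed genes, 10388 did. In the Lepr list, Stat3 (118 ± 12.4) and Jak2 (91.9 ± 6.12), which carry the leptin signal, were abundant, and the feedback inhibitor Socs3 was at 5.42 ± 0.44. Lep was not analysed here. For Ngfr, the neurotrophins Ntf3, Ntf5 and Bdnf were at 3.64 ± 0.89, 1.91 ± 0.36 and 1.01 ± 0.52. The co-receptor Sort1 (157 ± 21.9) and the neurotrophin receptor Ntrk3 (131 ± 9.95) were at 20.8 and 4.34 per kilobase of exon, against 2.85 for Ngfr, and Ntrk2 was at 27.0 ± 1.06 as deposited.

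For Nt5e, 4 of 11 measured genes had a mean of at least 10, beside 10388 of all 19381 listed genes. Entpd1 (CD39), which makes the AMP that Nt5e uses, was at 80.5 ± 6.75. The adenosine receptors Adora1, Adora2a and Adora2b were at 0.534 ± 0.347, 0.441 ± 0.155 and 0.706 ± 0.148. In the Vcam1 list 6 of 8 genes had a mean of at least 10. The alpha 4 and beta 1 integrin genes that bind Vcam1 were at 280.5 ± 19.7 (Itga4) and 1006 ± 104 (Itgb1). Of 2 measured CD200 receptor genes none had a mean of at least 10, and Cd200r1 was at 3.87 ± 1.12, or 1.15 per kilobase of exon against 13.2 for its ligand. In the Thy1 list 6 of 8 genes had a mean of at least 10. Of the integrins that bind Thy1, Itgav was at 245 ± 13.7 and Itgb5 at 108 ± 15.7, and Itgb3 was at 4.68 ± 0.33. Levels of partners are as deposited unless given per kilobase, and are then not comparable between genes of different length.

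**Figure D3:**
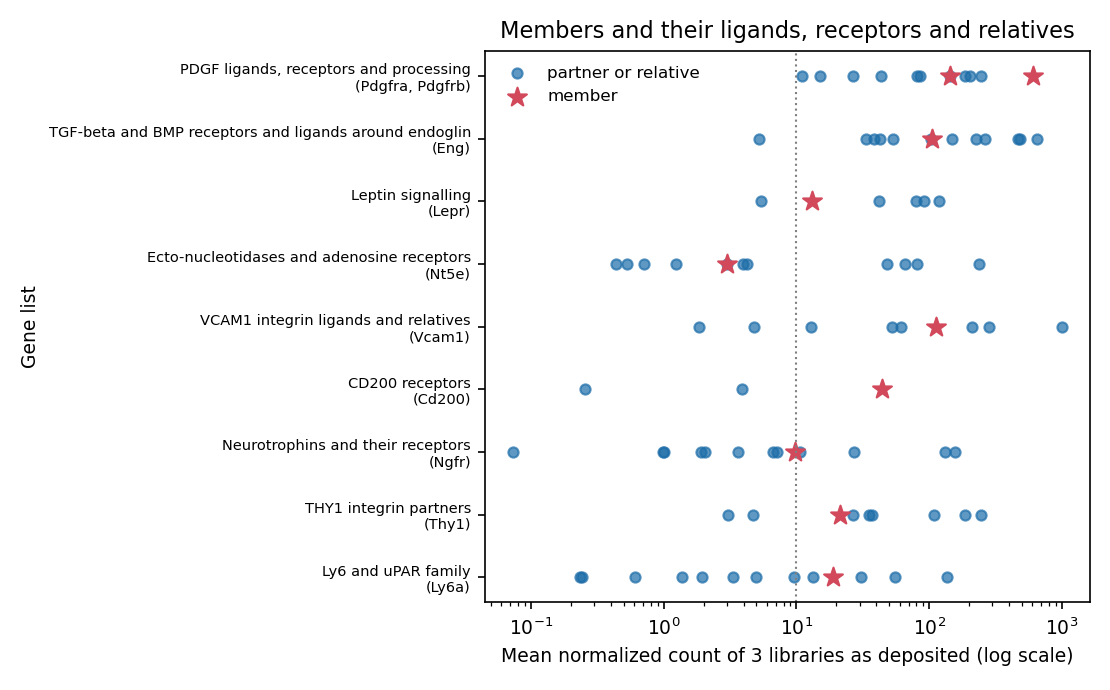
Mean normalized counts as deposited (log axis) of each member (stars) beside the genes of its ligands, receptors or relatives (circles, 1 row per list), with the dotted line at 10. Both measured CD200 receptors lie below 10, and most neurotrophin genes do too.

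Spread over the libraries separated steady from variable members. The SD of log2(value + 1) was 0.04 for Vcam1 and 0.04 for Thy1, smaller than in most genes of like level (percentiles 14.4 and 11.3 among genes with a mean within 2-fold). It was 0.09 for Pdgfra (percentile 46.2) and 0.16 for Pdgfrb (83.9). Ly6a (0.43, percentile 96.1), Nt5e (0.65, percentile 96.2), Eng (0.24, percentile 94.0) and Lepr (0.33, percentile 91.1) were more variable than at least 91.1% of genes of like level. Cd200 (0.20) and Ngfr (0.28) lay at percentiles 88.0 and 85.5. The median SD of the 10 members was 0.22, against 0.10 over genes with a mean of at least 10 and 0.13 over all listed genes. The 10 members include Ngfr and Nt5e, whose means were below 10. The median of the members was 0.10, 0.24 and 0.13 without replicates 1, 2 and 3, and the background was not recomputed for these.

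Counting error was smaller than this spread for most members. If the smallest value is 1 read, counting alone would give a coefficient of variation of 3.54% for Thy1, where 3.26% was observed. For Vcam1 the values were 1.53% and 2.60%. The observed coefficient was 4.19 (Ngfr) to 10.9 (Eng) times the counting value in the other 8 members, for example 33.5% against 3.87% for Ly6a and 55.3% against 10.7% for Nt5e. Library preparation and PCR are not part of the counting value.

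**Figure D4:**
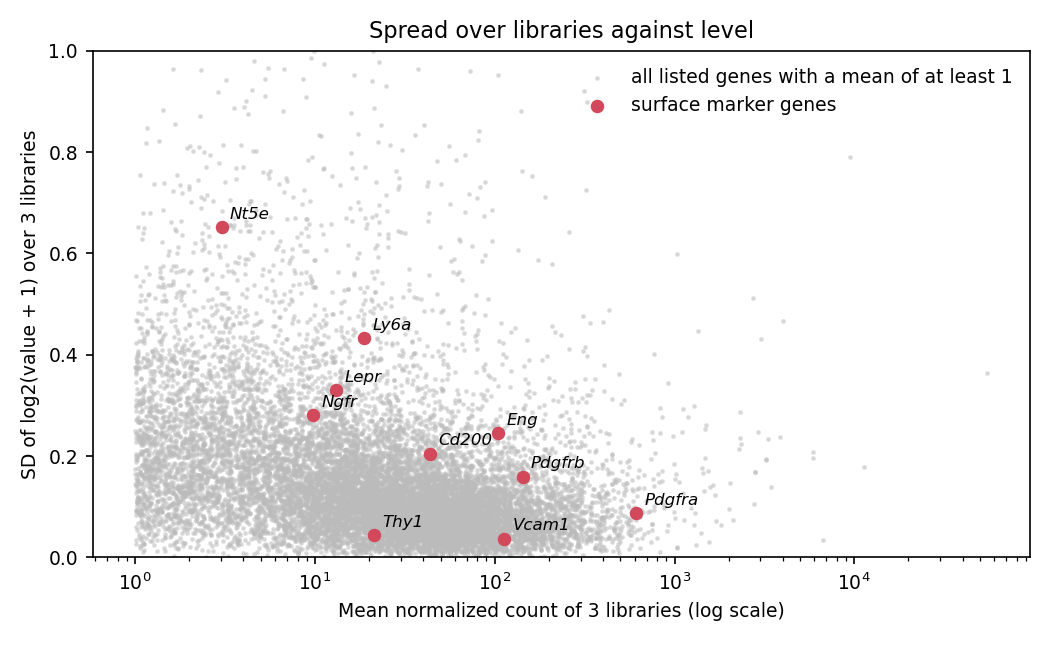
SD of log2(value + 1) over the 3 libraries against mean normalized count (log axis) for listed genes with a mean of at least 1 (grey) and the members (red); 92 genes with an SD above 1 lie outside the plot. Thy1 and Vcam1 lie at the lower edge of the cloud, and Nt5e, Ly6a and Eng near its upper edge.

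Members did not all move together. Cd200, Ly6a, Ngfr, Nt5e and Vcam1, 5 of 10, were highest in replicate 1, as were 35.3% of all listed genes. Eng, Lepr, Pdgfra and Pdgfrb, 4 of 10, were highest in replicate 3 (background 30.4%), and Thy1 was highest in replicate 2 (34.3%). Replicate 2 was lowest for 5 of 10 (Cd200, Ly6a, Ngfr, Nt5e and Pdgfrb; background 29.4%), replicate 1 for Eng, Lepr, Pdgfra and Thy1 (34.0%) and replicate 3 for Vcam1 (36.6%). The median deviation of the members from their own means was 0.05, -0.15 and 0.02 on the log2 scale in replicates 1, 2 and 3, against -0.01, 0.01 and 0.00 over genes with a mean of at least 10. Under another scaling, by median ratios, Thy1 was lowest in replicate 3 in place of replicate 1.

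**Figure D5:**
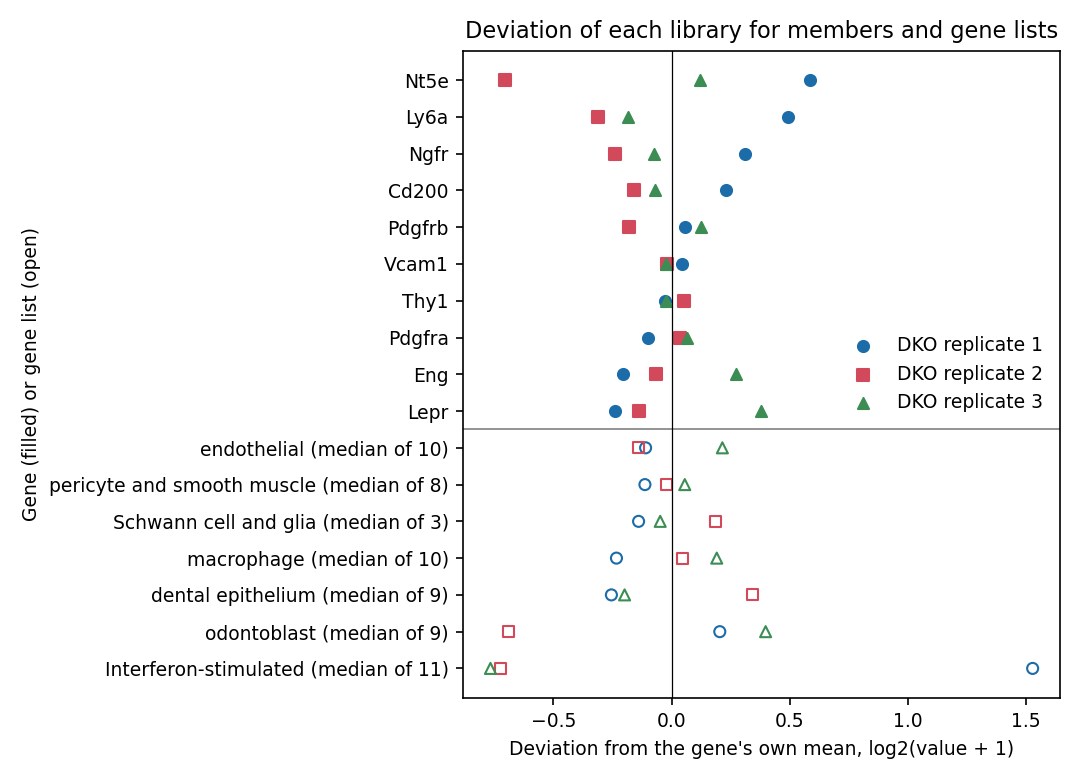
Deviation of each library from the gene's own mean on the log2(value + 1) scale for the members (filled) and, for lists with at least 3 genes at a mean of 10 or more, the median over those genes (open). Ly6a, Cd200, Ngfr, Nt5e, Vcam1 and the interferon list share replicate 1 as the highest. Eng, Lepr, Pdgfra and Pdgfrb share replicate 3 with the endothelial, pericyte and smooth muscle, macrophage and odontoblast lists.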

How the data were processed

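Gene expression was measured by bulk RNA sequencing in 3 DKO libraries of proximal incisor. Reads were aligned with TopHat2 2.0.8 to mm10, per the submitters' processing notes. The authors deposited a signal per gene that they call a normalized count. For the counter, strand setting and filters, nothing is stated in the sources used here. The 75th percentile was 44.7 in each library. A number in each column's name ties it to its library, and no column was left unused. The values are not whole, so no count model was run.

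Means and SDs over n = 3, log2(value + 1), percentiles among genes with a mean of at least 10, and levels per kilobase were computed with Python 3.11.15, numpy 2.4.6 and pandas 2.3.3. Exon lengths and gene positions are from GENCODE M21, whose starts equal the deposited ones for all 10 members. Exon lengths were found for 18863 of 19381 genes. Strand being unknown, reads of antisense genes that overlap Pdgfra, Vcam1 and Eng exons (at most 4.5% of exon bases for 1 overlapping gene) could be included. The 20 partner and marker lists hold 219 genes, of which 200 were found. The rule for named genes took all members, the 3 genes with the highest mean of every list and the only measured ligand or receptor of a member. Other partners and markers were named after their values were seen. The members and lists were chosen with earlier results of these data known. The highest library, the fold over the other libraries and the percentile of spread were run on simulated counts with genes raised in replicate 1. Levels per kilobase, their order and the list summaries were not simulated. Some genes of the lists enter the counts but are not reported here by name.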

Additional observations from a re-analysis of the deposited data

How the results depend on the processing

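Rescaling libraries to equal totals or by median ratios moved the level of every member by less than 1 SD. So did leaving out each library (50 of 50 values together), but 30 of these were fixed in advance. With 3 libraries, leaving 1 out cannot move a mean by as much as 1 SD. Without length correction the log2 difference of Ly6a minus Cd200 turned to -1.22, Cd200 minus Vcam1 to -1.36 and Ngfr minus Lepr to -0.38. With the longest protein-coding transcript as the length, an alternative chosen after seeing the data, Pdgfrb minus Eng was -0.20 and Cd200 minus Vcam1 -0.78. Leaving out a library gave -0.11 to 0.092 for Pdgfrb minus Eng and -0.051 to 0.11 for Cd200 minus Vcam1, with the negative values without replicate 1. The median percentile of the members, 38.8 among genes with a mean of at least 10, became 67.2 when genes of any level were compared and 0 among those at 100 or more, and dividing by length gave 66.0 (all exons) and 67.2 (longest coding transcript). These shifts follow from the genes compared and the length used. The number of members lowest in replicate 3 was 2 in place of 1 by median ratios, and 2 after removal of 17 ribosomal RNA and mitochondrial genes. Of the genes of all lists, 143 had a mean of at least 10, beside 10388 of all 19381 listed genes. A mean of at least 100 was reached by 52 genes of the lists. Of the SDs of single members, 56 of 70 stayed within 1.5 times. No paired analysis was possible because there is 1 group. Depth limits statements on genes near the smallest listed value.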
